A study of Homo sapiens with 4 samples.

Results

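Antisense RNAs are transcribed from the strand opposite a protein-coding gene and are named after that gene with the ending -AS1, -AS2 or -AS3. The 79 described here are the genes with such a symbol in the platform's annotation, KIF23-AS1 left out, whose brightest probe set of a single gene had a mean intensity of at least 20 over the 4 arrays. A probe set is a group of short probes that reads 1 transcript. The array carried 777 such symbols among 19775 named genes, and 697 of them had means under 20. The members were selected on their mean intensity over all 4 arrays, so their brightness is a description. The difference between groups was not used in the choice, but a member near the limit can have passed through 1 group: 6 averaged under 20 in knockdown alone and 3 in control alone.

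RNA came from KM-H2, an established Hodgkin lymphoma cell line in which CIITA, the activator of HLA class II transcription, is joined to the transcript BX648577. The arrays were 2 of knockdown cells, which carried a lentiviral short hairpin (vector pGIPZ-sh.FLJ27352) aimed at the BX648577 portion of the CIITA-BX648577 fusion, and 2 of cells with a non-silencing control. The labels describe all 4 as transduced KM-H2 cells and do not say whether the replicates came from separate cultures, so the p-values below measure only the spread between these samples. A single hairpin was used, and the comparison therefore reads that hairpin against the control vector. PIERCE2, the gene once listed as FLJ27352, read 621 and 590 on the knockdown arrays against 880 and 947 on the control arrays, and CIITA read 60.7 and 53.6 against 59.6 and 65.1.

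As background, an antisense RNA may share a start region with its partner and be copied away from it, may begin inside the partner, or may begin far downstream and run back across it. Where the pair shares a start region the RNAs are often transcribed together, while in other pairs the antisense transcript is known to repress its partner or to act elsewhere in the cell. Many such RNAs are short-lived and are degraded in the nucleus by the RNA exosome, and most are far less abundant than messenger RNAs. OIP5-AS1, the human counterpart of the zebrafish RNA cyrano, is a well-known exception that accumulates in the cytoplasm.

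Array means lay between 53.3 and 54.6 and array medians between 8.12 and 9.28, with the knockdown arrays at 8.37 and 8.12 against 9.17 and 9.28 in control. Pearson's r of the log2 values was 0.99 within the knockdown pair, 0.98 within the control pair and 0.98 for each pair across groups. Of 7 markers of the Hodgkin and B lineage, 6 were at 20 or above, with summed intensities of 3022 and 2930 in knockdown and 2976 and 2951 in control. Of 5 T and NK cell markers only CD3D, a chain of the T cell receptor complex, was at 20 or above, at 253 and 225 in knockdown against 194 and 183 in control, and CD3E, CD3G, CD2 and NKG7 were dim. Myeloid markers summed to 129 and 131 against 136 and 133, those of fibroblasts and endothelium to 167 and 136 against 170 and 208, and those of epithelium to 43.2 and 31.7 against 33.6 and 54.0. In limma's intensity-trend fit, which called 3.01% of all genes, FSCN1 of the Hodgkin list was lower in knockdown (507 and 500.5 against 644 and 618, adjusted p 0.0159), CD3D was higher (adjusted p 0.0495) and the collagen gene COL1A2 was lower (37.3 and 32.9 against 56.4 and 53.3, adjusted p 0.0402). FSCN1 was the only gene of its list with a log2 fold change below 0. The other 6 lay above 0, and the median of the list was 0.08. The part of these markers in the results was not tested, and in bulk RNA fewer cells of a type and less RNA per cell cannot be told apart.

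The start regions of the antisense RNAs that the results turn on are given here, because the position of a start decides how much promoter sequence a pair shares. They come from RefSeq on GRCh38.p14, run 5′ to 3′ in the direction of the antisense RNA, and cover 250 bases before and 50 bases from its annotated start. Such a window was found for 64 of the 79 members, and 59 pairs had one for both genes. For KIF25-AS1 (minus strand, chr6:167997028-167997327), MSRB3-AS1 (minus strand, chr12:65642323-65642622) and TMEM147-AS1 (minus strand, chr19:35545980-35546279) the windows of the pair shared no base, and capitals mark the first 50 bases of the RNA. KIF25-AS1 and MSRB3-AS1 had the largest log2 fold changes among the members whose groups did not overlap, and the sense partner of TMEM147-AS1 had the highest log2 fold change among the partners.
KIF25-AS1: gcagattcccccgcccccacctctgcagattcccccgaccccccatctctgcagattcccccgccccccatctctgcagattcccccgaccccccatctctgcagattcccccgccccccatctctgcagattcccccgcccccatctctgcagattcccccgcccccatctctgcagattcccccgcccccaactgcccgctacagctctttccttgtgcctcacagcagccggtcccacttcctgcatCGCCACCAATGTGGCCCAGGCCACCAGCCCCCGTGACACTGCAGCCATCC
MSRB3-AS1: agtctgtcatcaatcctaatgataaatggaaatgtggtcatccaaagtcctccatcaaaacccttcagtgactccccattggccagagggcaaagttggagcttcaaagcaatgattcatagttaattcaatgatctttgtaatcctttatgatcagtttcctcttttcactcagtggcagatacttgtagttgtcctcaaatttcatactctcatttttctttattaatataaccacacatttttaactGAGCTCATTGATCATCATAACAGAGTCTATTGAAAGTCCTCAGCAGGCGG
TMEM147-AS1: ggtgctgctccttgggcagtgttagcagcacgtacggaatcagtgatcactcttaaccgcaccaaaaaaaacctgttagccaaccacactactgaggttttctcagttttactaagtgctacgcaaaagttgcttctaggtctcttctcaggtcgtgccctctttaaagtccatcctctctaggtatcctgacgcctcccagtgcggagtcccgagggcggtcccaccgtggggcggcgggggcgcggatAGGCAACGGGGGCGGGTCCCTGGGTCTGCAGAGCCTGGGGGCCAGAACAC

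In the next 4 windows capitals mark the bases that the antisense window shares with the window of its partner on the other strand. They are shown because the groups did not overlap for the member or for its partner. The shared stretch was 110 bases for RFX5-AS1 (plus strand, chr1:151346760-151347059), 293 for MNX1-AS1 (plus strand, chr7:157010607-157010906), 216 for ATP2B1-AS1 (plus strand, chr12:89708705-89709004) and 156 for ZNF232-AS1 (plus strand, chr17:5111685-5111984).
RFX5-AS1: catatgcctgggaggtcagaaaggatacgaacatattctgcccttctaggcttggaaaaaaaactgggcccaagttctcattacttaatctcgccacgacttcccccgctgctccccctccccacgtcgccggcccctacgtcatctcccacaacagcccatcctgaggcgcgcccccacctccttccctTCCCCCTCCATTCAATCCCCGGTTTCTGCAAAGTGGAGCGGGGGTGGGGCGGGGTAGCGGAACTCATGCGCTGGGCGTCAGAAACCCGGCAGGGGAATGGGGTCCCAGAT
MNX1-AS1: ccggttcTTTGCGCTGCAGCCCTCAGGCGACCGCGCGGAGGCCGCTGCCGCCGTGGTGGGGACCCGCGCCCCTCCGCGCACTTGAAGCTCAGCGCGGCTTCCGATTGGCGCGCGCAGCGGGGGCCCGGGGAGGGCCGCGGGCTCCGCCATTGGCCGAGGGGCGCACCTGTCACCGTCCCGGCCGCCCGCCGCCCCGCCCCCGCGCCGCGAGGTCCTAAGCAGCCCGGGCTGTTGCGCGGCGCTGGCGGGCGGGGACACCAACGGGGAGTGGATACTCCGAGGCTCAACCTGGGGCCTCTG
ATP2B1-AS1: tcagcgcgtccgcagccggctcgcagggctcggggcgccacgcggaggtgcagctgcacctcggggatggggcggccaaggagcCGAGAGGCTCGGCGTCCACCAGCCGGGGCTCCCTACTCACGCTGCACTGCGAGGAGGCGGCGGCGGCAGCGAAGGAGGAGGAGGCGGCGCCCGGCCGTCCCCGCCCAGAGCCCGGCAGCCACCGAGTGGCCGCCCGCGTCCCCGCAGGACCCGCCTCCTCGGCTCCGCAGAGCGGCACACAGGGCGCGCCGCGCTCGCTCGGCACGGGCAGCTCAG
ZNF232-AS1: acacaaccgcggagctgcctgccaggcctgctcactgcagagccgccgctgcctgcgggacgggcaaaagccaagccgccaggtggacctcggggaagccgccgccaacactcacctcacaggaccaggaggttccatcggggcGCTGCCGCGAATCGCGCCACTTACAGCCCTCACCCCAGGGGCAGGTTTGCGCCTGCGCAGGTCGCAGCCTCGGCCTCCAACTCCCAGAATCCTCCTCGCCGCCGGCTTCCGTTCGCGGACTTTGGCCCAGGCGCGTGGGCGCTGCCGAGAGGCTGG

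Most of the antisense RNAs were dim. Their means over the 4 arrays had a median of 33.3, and 62 of 79 were under 50, 10 were from 50 to under 100 and 7 were at 100 or above. Intensities of different probe sets also reflect how well each probe hybridises, so the order of members is an order of signals and not of transcript numbers. Just inside the limit of 20 were ADARB2-AS1 at 20.03, MAPT-AS1 at 20.07 and ANXA2R-AS1 at 20.2, and just outside it were SPEN-AS1 at 19.998, ZNF433-AS1 at 19.4 and P4HA3-AS1 at 19.3.

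The brightest signals were steady across the arrays. TMEM132D-AS1, named after a neural transmembrane protein gene, read 717 and 727 in knockdown against 735 and 754 in control, and OIP5-AS1 read 233 and 237 against 240 and 234. EPB41L4A-AS1 read 196 and 200.5 against 195 and 223, and CCDC144NL-AS1 read 194 and 164 against 180.4 and 176. Log2 fold changes of these 4, knockdown over control, lay between -0.07 and 0.00 by these brightest probe sets. Only for TMEM132D-AS1 did the groups not overlap, and its second probe set separated them the other way. AFAP1-AS1, an RNA reported to be raised in several carcinomas, was higher on both knockdown arrays, at 145 and 137 against 119 and 126, a log2 fold change of 0.18 that did not pass the test. ERICH1-AS1 (114 and 116 against 134 and 116) and NNT-AS1 (75.2 and 87.0 against 90.4 and 86.0) each had a log2 fold change of -0.10. FGD5-AS1 is described with the members that were lower.

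Within a group, 64 of the 79 members had their higher array under 1.5 times the lower one in both groups. A ratio of at least 2 was seen for 6, KIF25-AS1, IL12A-AS1, CLYBL-AS2, IDI2-AS1, TDH-AS1 and ADARB2-AS1. TDH-AS1 read 6.79 and 32.6 in knockdown and 5.95 and 41.3 in control, and ADARB2-AS1 read 3.28 and 24.4 against 46.0 and 6.43. For these 2 RNAs the replicates of 1 group differed more than the groups did, and the 95% interval of the log2 fold change ran from -1.25 to 1.07 for TDH-AS1 and from -1.61 to 0.77 for ADARB2-AS1.

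**Figure D1:**
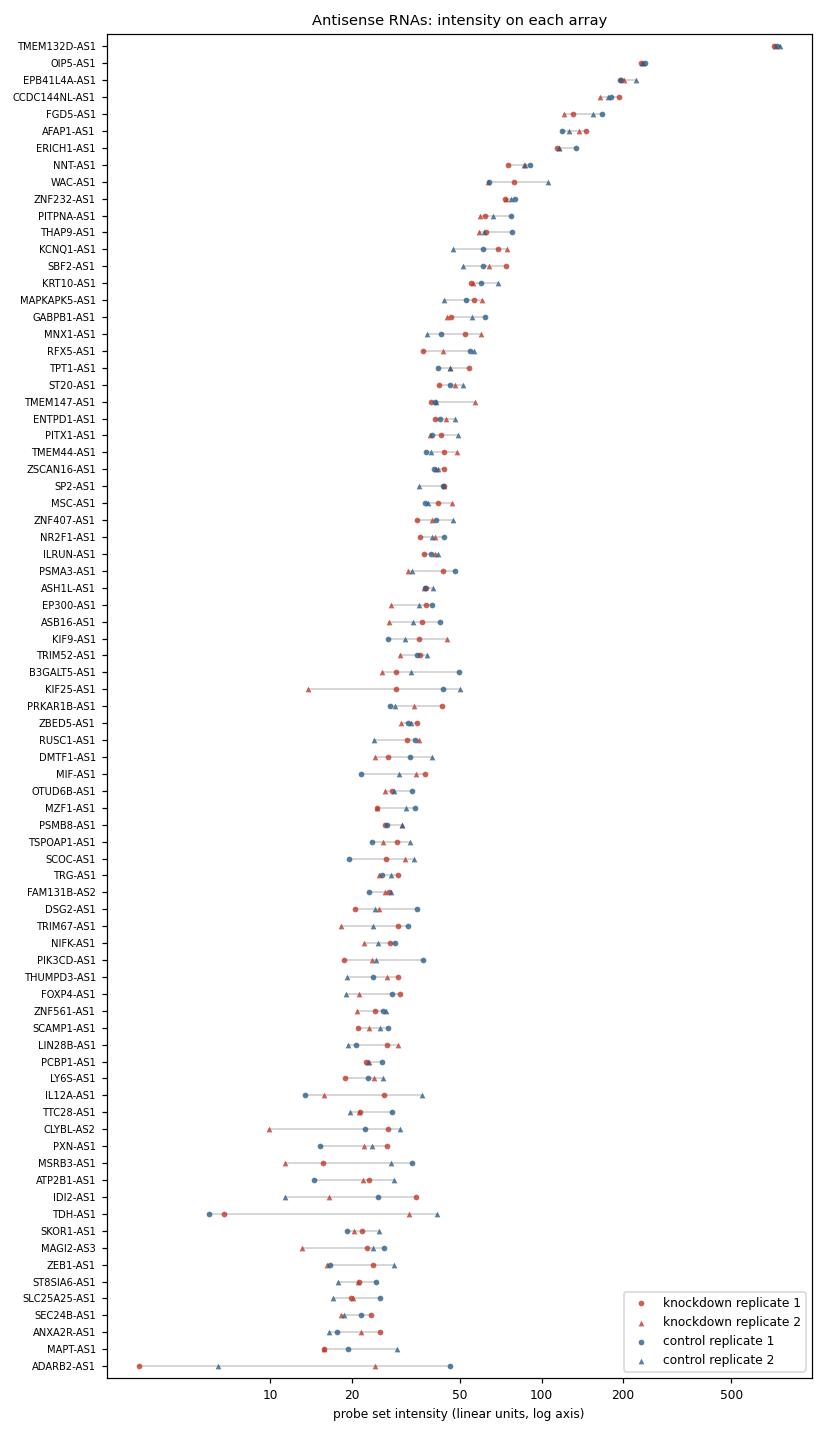
Probe set intensity of each of the 79 antisense RNAs on each array (linear units on a log axis), ordered by the mean over the 4 arrays, with knockdown arrays in red and control arrays in blue, circles for replicate 1, triangles for replicate 2 and a grey line over the range. Most points lie under 50, TMEM132D-AS1 stands alone near 734, and ADARB2-AS1 and TDH-AS1 show the widest spread within a group.

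The members furthest from control were KIF25-AS1 and MSRB3-AS1, at 21.4 and 13.5 on average in knockdown against 46.8 and 30.6 in control, and most others lay within a log2 fold change of 0.36 in either direction. No member passed an adjusted p of 0.05 in limma's fit with 1 prior variance for all genes (the common-prior fit), in which 2 of 12921 genes (0.0155%) did. In limma's alternative fit, where the prior variance follows mean intensity (the intensity-trend fit), 2 members were lower in knockdown, KIF25-AS1 and MSRB3-AS1, and 0 were higher, against 181 genes lower (1.4%) and 208 higher (1.61%) among all genes tested, or 3.01% in both directions. Among all genes with a mean of at least 20 the intensity-trend fit called 4.29%. At an unadjusted p under 0.05 the common-prior fit had 16 members, 7 higher and 9 lower, against 14.1% of all genes, and the intensity-trend fit had 13, against 17.1% of all genes. As a share of members, the common-prior count is above that of all genes and the intensity-trend count is near it. Neither difference in share was tested.

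Log2 fold changes of the 79 had a median of -0.07 and quartiles of -0.15 and 0.09, against -0.01 over all genes tested and 0.01 over genes with a mean of at least 20. They ran from -0.77 to 0.36. The members lay above 0 in 28 cases and below 0 in 51, against 6129 and 6792 of all genes tested. Once each array was centred on its median, the members split into 38 and 41, with a median of -0.01. All genes tested moved the same way, to 7774 above and 5147 below 0 with a median of 0.05, so the members stayed lower than all genes. Both knockdown arrays lay above both control arrays for 14 members and below them for 20, together 34 of 79, while 47.3% of all genes and 51.8% of genes with a mean of at least 20 showed such a separation. Only 2 members, or 2.53%, lay beyond 0.5 in either direction, against 1.70% of all genes. The 95% interval of the log2 fold change lay within 0.5 of 0 for 47 members and within 1 of 0 for 76. All 79 passed the filter on dim probe sets, and 55 had an adjusted p over 0.5 in the common-prior fit.

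**Figure D2:**
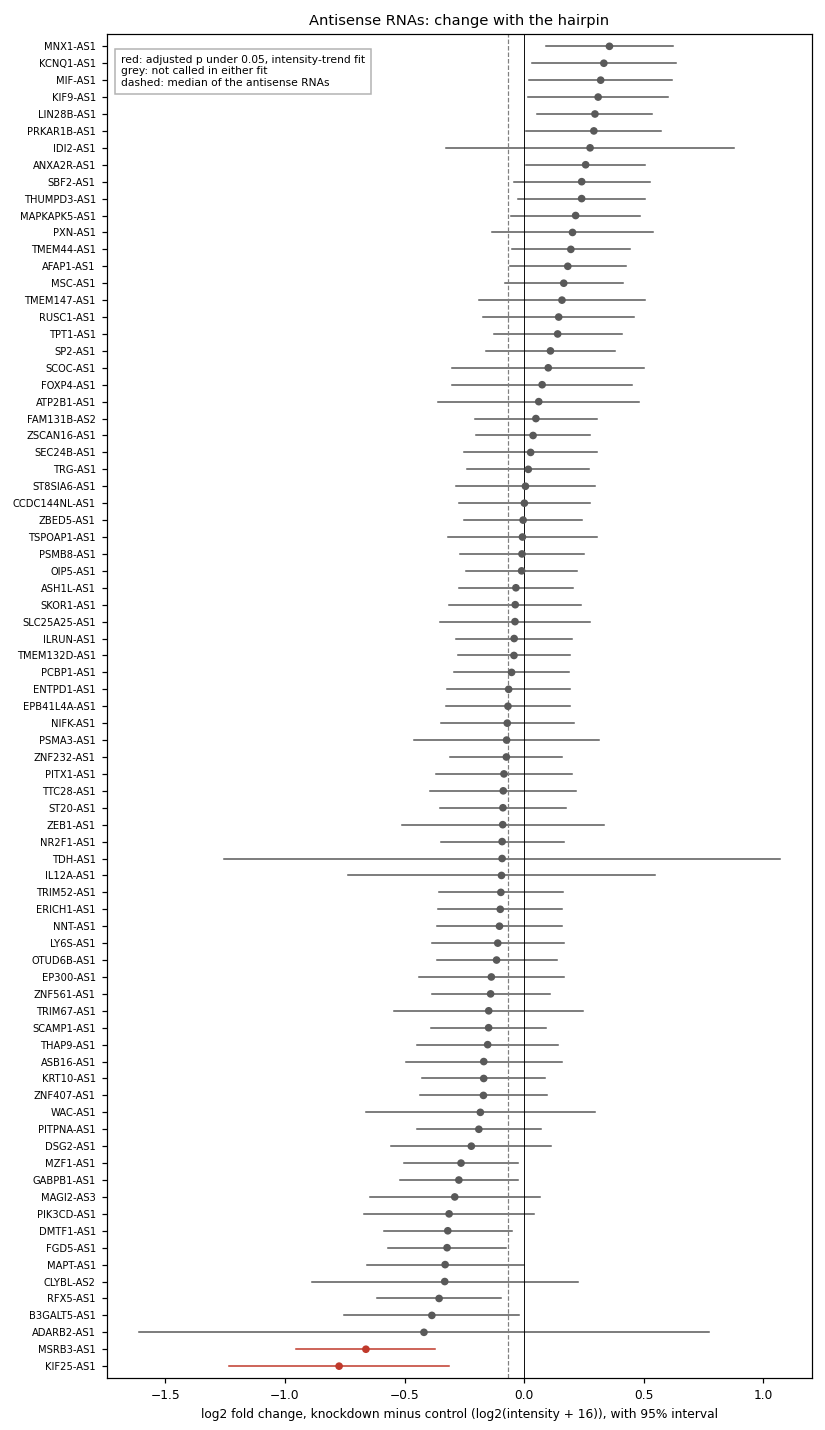
Log2 fold change of each antisense RNA, as knockdown minus control after log2(intensity + 16), with its 95% interval from the common-prior fit. KIF25-AS1 and MSRB3-AS1 (red, called in the intensity-trend fit alone) lie at -0.77 and -0.66, and the dashed line marks the median of -0.07.

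KIF25-AS1, the antisense RNA of a kinesin gene, read 29.0 and 13.8 on the knockdown arrays against 43.2 and 50.3 on the control arrays. Both knockdown arrays were lower than both control arrays, and the knockdown arrays differed from each other by more than the control arrays did. The means were 21.4 ± 10.8 and 46.8 ± 4.96 (SD, n = 2 each), a log2 fold change of -0.77 (standard error 0.19, 95% interval -1.23 to -0.31). Its adjusted p was 0.256 in limma's common-prior fit and 0.0189 in the intensity-trend fit, and that call was lost without control replicate 2 (log2 fold change -0.69, adjusted p 0.113) or without knockdown replicate 2 (-0.48, adjusted p 0.220). Other probe sets of KIF25-AS1 were dim and gave log2 fold changes of 0.26 and -0.14. KIF25 itself was near the filter on every array, at 8.66 and 9.17 in knockdown against 13.8 and 7.15 in control, with groups that overlapped.

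MSRB3-AS1, antisense to a methionine sulfoxide reductase gene, read 15.6 and 11.3 in knockdown against 33.4 and 27.8 in control. No knockdown array reached the lower control array. The means were 13.5 ± 3.04 and 30.6 ± 3.93 (SD, n = 2 each), a log2 fold change of -0.66 (standard error 0.12, 95% interval -0.95 to -0.37). The adjusted p was 0.251 in limma's common-prior fit and 0.0251 in the intensity-trend fit, and that call was lost without control replicate 1 (adjusted p 0.0965), control replicate 2 (0.0525) or knockdown replicate 2 (0.192). MSRB3-AS1 reached the mean of 20 only through the control arrays. MSRB3, at 11.1 and 16.1 in knockdown and 16.5 and 13.2 in control by its brightest probe set, overlapped between the groups. A second MSRB3 probe set above the filter read 10.2 and 6.57 against 11.6 and 17.7, lower on both knockdown arrays (-0.33), so its probe sets differ on whether the partner separates the groups.

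RFX5-AS1 lies head to head with RFX5, a subunit of the RFX complex that binds the promoters of HLA class II genes and recruits CIITA. The antisense RNA read 36.5 and 43.4 in knockdown against 54.6 and 56.3 in control, and the groups did not overlap. Its log2 fold change of -0.36 (standard error 0.11) had an adjusted p of 0.273 in limma's common-prior fit and 0.122 in the intensity-trend fit and did not pass either. RFX5 read 193 and 187 against 188 and 173, a log2 fold change of 0.07, with groups that overlapped. The change in the difference between antisense RNA and partner was -0.42 (95% interval -0.86 to 0.01).

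The other members with the largest separated differences below control were B3GALT5-AS1, MAPT-AS1 and FGD5-AS1, and none passed either fit. B3GALT5-AS1, antisense to a galactosyltransferase gene, read 29.2 and 25.9 in knockdown against 49.9 and 33.1 in control. MAPT-AS1, antisense to the gene of tau, read 15.9 and 15.8 against 19.3 and 29.3, and it too averaged under 20 in knockdown. The log2 fold changes of these 2 RNAs were -0.39 and -0.33 by their brightest probe sets. Dimmer probe sets of MAPT-AS1 gave values between -0.66 and -0.01, and that of B3GALT5-AS1 gave -0.05. FGD5-AS1, antisense to an exchange factor for the GTPase CDC42, read 130 and 121 against 167 and 155, and its log2 fold change of -0.32 had an adjusted p of 0.279 in limma's common-prior fit and 0.0649 in the intensity-trend fit. A dim second probe set of FGD5-AS1 read 8.61 and 11.7 in knockdown against 6.30 and 7.56 in control, separated the other way (0.19). FGD5 was dim, at 8.02 and 9.20 in knockdown against 12.5 and 13.6 in control.

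The largest separated differences above control were those of MNX1-AS1, KCNQ1-AS1, MIF-AS1, KIF9-AS1 and LIN28B-AS1, with log2 fold changes of 0.36, 0.33, 0.32, 0.31 and 0.30. None passed, with adjusted p-values in limma's common-prior fit between 0.277 and 0.336. MNX1-AS1 read 52.1 and 59.9 in knockdown against 42.6 and 37.8 in control, while MNX1, a homeobox factor of motor neurons and pancreas, read 114 and 111 against 109 and 113. KCNQ1-AS1, antisense to a potassium channel gene, read 69.2 and 74.3 against 60.8 and 47.1, and KCNQ1 read 25.6 and 30.4 against 29.7 and 32.9. By these brightest probe sets neither sense gene separated the groups. A dimmer probe set of KCNQ1 read 16.94 and 15.97 in knockdown against 9.10 and 10.9 in control, higher on both knockdown arrays (0.32 on the log2 scale), while MNX1 had a single probe set.

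MIF-AS1 read 37.3 and 34.4 in knockdown against 21.7 and 29.9 in control, while MIF, a cytokine made by many tumour and immune cells, was bright at 1548 and 1564 against 1458 and 1675. KIF9-AS1 read 35.5 and 45.0 against 27.2 and 31.4, and its kinesin partner KIF9 read 74.6 and 80.6 against 68.4 and 68.4, both genes of the pair being higher on both knockdown arrays by these probe sets, while another KIF9 probe set gave -0.22. LIN28B-AS1 read 27.1 and 29.5 against 20.8 and 19.4. LIN28B, which blocks maturation of let-7 microRNAs, was under the filter at 4.69 and 3.0 in knockdown and 5.94 and 1.67 in control.

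Several members are named after genes of the immune system, and they were singled out for that role after their values were seen. PSMB8-AS1, next to a subunit of the immunoproteasome, read 26.4 and 30.6 in knockdown and 27.0 and 30.6 in control, and PSMB8 read 135 and 127 against 139 and 119. TRG-AS1, from the T cell receptor gamma locus, read 29.7 and 25.1 against 25.9 and 27.8. ENTPD1-AS1, named after the gene of the ectonucleotidase CD39, read 40.5 and 44.3 against 42.1 and 48.2. PIK3CD-AS1, antisense to the catalytic subunit of the lymphocyte PI3 kinase delta, read 18.8 and 23.7 against 36.5 and 24.6, the largest difference of this group at -0.31 on the log2 scale. IL12A-AS1, antisense to the p35 chain gene of interleukin-12, read 26.4 and 15.8 against 13.4 and 36.2, with the control arrays on either side of the knockdown arrays. Among these 5 only PIK3CD-AS1 separated the groups, and none passed either fit.

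Of the 79 members, 70 had a probe set for the gene named before the hyphen, 62 of these partners passed the filter and 8 did not. The 9 without one were ASH1L-AS1, CCDC144NL-AS1, LY6S-AS1, MAGI2-AS3, SKOR1-AS1, ST8SIA6-AS1, TDH-AS1, TRG-AS1 and ZNF561-AS1. No partner passed limma's common-prior fit, and at an unadjusted p under 0.05 there was 1 higher and there were 8 lower, of 62, against 829 higher and 992 lower among all genes (14.1%). In the intensity-trend fit 1 partner of 62 was higher, TMEM147, and 1 was lower, ATP2B1, against 1.61% higher and 1.4% lower among all genes tested. The median log2 fold change of the 62 partners was -0.03, with quartiles of -0.15 and 0.04, against -0.01 over all genes tested. With each array centred on its median it became 0.03, against 0.05 over all genes tested.

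TMEM147 encodes a membrane protein of the endoplasmic reticulum that belongs to a translocon for multi-pass proteins. It read 283 and 287 in knockdown against 177 and 199 in control, higher on both knockdown arrays by more than the replicates differed. The log2 fold change was 0.56 (standard error 0.11), with an adjusted p of 0.251 in limma's common-prior fit and 0.00160 in the intensity-trend fit, a call that held without each array in turn. TMEM147-AS1 read 39.1 and 56.8 in knockdown against 40.6 and 41.0 in control. Only knockdown replicate 2 stood above the control arrays, and the log2 fold change of the antisense RNA was 0.16, or -0.04 without that replicate.

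ATP2B1 encodes a calcium pump of the plasma membrane. It read 67.3 and 57.0 in knockdown against 96.9 and 91.9 in control, and no knockdown array reached a control array. The log2 fold change was -0.50 (standard error 0.11), with an adjusted p of 0.251 in limma's common-prior fit and 0.0199 in the intensity-trend fit. That call was lost without control replicate 1 (adjusted p 0.0681), control replicate 2 (0.0554) or knockdown replicate 2 (0.199), and other probe sets of ATP2B1 gave -0.23 and -0.39. ATP2B1-AS1 read 23.1 and 21.9 in knockdown, both between the control values of 14.6 and 28.6, a log2 fold change of 0.06.

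Further partners with separated groups passed neither fit. ZNF232, a zinc finger gene, read 90.9 and 86.2 in knockdown against 119 and 113 in control (log2 fold change -0.34, adjusted p 0.0697 in limma's intensity-trend fit). ZEB1, a zinc finger repressor known from epithelial-mesenchymal transition, read 158 and 148 against 196 and 184 (-0.29, adjusted p 0.0867 in the same fit). Another ZEB1 probe set read 57.9 and 57.5 against 49.4 and 53.5, separated the other way (0.13), and the mean of its probe sets gave -0.025, so no direction is given for ZEB1. Among their antisense RNAs, ZNF232-AS1 had 2 probe sets that separated the groups in opposite directions, and ZEB1-AS1 overlapped, reading 23.9 and 16.2 against 16.6 and 28.6.

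**Figure D3:**
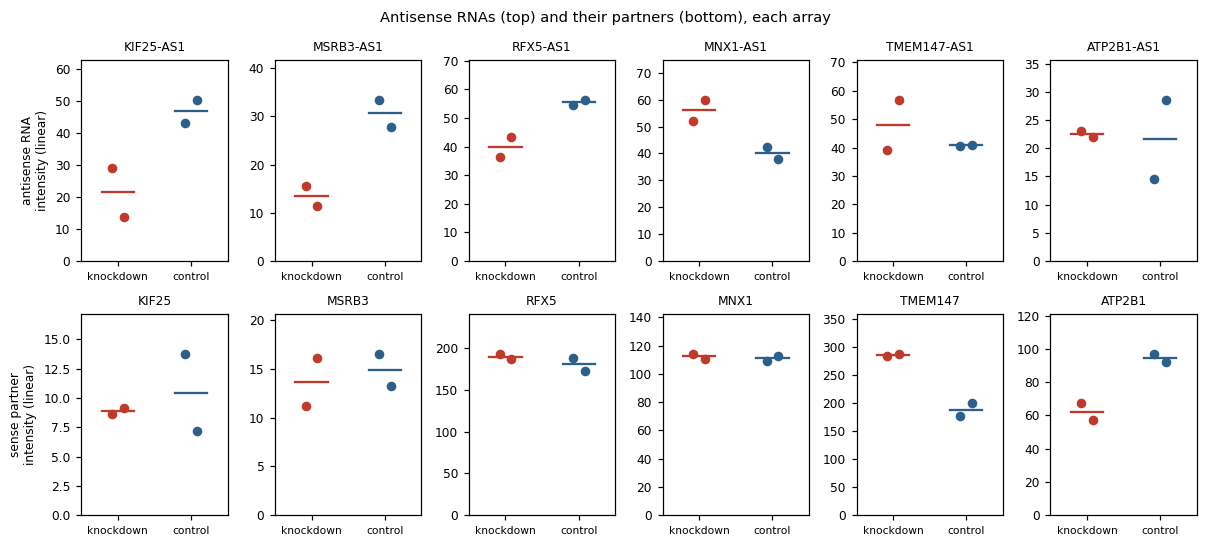
Intensities (linear units, axes from 0) of 6 antisense RNAs in the top row and of their sense partners in the bottom row, with knockdown arrays in red on the left, control arrays in blue on the right and lines at the group means. By these brightest probe sets the antisense RNA separates the groups and the partner overlaps in the first 4 pairs, and in the pairs of TMEM147 and ATP2B1 the partner separates them and the antisense RNA overlaps.

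Whether an antisense RNA and its partner responded differently was tested on the within-array difference of their log2 values, over all 712 pairs on the array with a probe set for both genes. Of these, 1 pair passed an adjusted p of 0.05 in limma (0.14%), in either prior, and it was not among the members. At an unadjusted p under 0.05 there were 57 pairs (8.01%), of which 4 were members. In 2 of these 4 the antisense RNA was lower relative to its partner, with changes of -0.70 for KIF25-AS1 and -0.60 for MSRB3-AS1. In the other pairs it was higher relative to its partner, by 0.56 for ATP2B1-AS1 (95% interval 0.03 to 1.10) and by 0.50 for AFAP1-AS1 (0.05 to 0.94). All 4 had an adjusted p of 0.612. For TMEM147-AS1 the change was -0.40 (95% interval -0.87 to 0.06) and for MNX1-AS1 0.34 (-0.09 to 0.77), and both intervals include 0.

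The signs of the log2 fold changes gave no tight pairing. Among the 62 pairs with both genes tested, both lay above 0 in 9, both below 0 in 26 and on opposite sides in 27. These counts are for the values as deposited. With each array centred on its median, 37 partners lay above 0 and 25 below, against 7774 and 5147 of all genes. Across these pairs Pearson's r was 0.15 and Spearman's rho 0.16. The pairs share the same 4 arrays and any offset between arrays, so these are descriptions over genes and not over replicates.

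**Figure D4:**
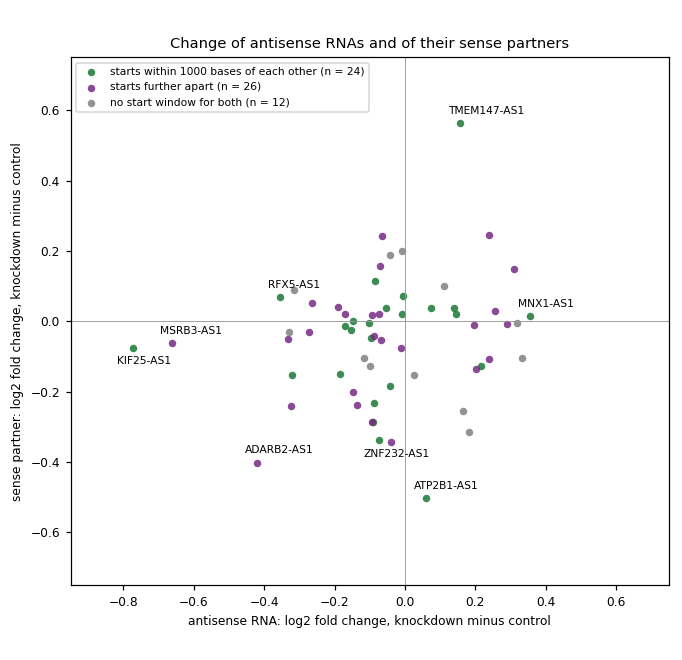
Log2 fold change of each antisense RNA (horizontal axis) against that of its sense partner (vertical axis), knockdown minus control, for the 62 pairs with both genes tested, coloured by the distance between annotated starts. KIF25-AS1 and MSRB3-AS1 lie far left near the horizontal zero line, and the pairs of TMEM147 and ATP2B1 lie at 0.56 and -0.50 on the vertical axis near the vertical zero line.

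In RefSeq, 78 of the 79 members were found under their symbol, all as long noncoding RNAs, and ERICH1-AS1 was not matched. Their partners were protein coding in 75 cases. Of the 59 pairs with start windows for both genes, 58 ran on opposite strands, FAM131B-AS2 being annotated on the strand of FAM131B. The 2 gene spans overlapped in 46 of the pairs. They did not overlap for KIF25-AS1, B3GALT5-AS1, FGD5-AS1 and MNX1-AS1, among others. The starts lay head to head within 1000 bases in 23 pairs, within 1000 bases with the antisense start inside the partner in 7, and over 1000 bases apart in 28. The windows of 24 pairs shared bases.

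The medians of these classes were close to each other. The head-to-head pairs had a median antisense log2 fold change of -0.05, with 8 above and 15 below 0 and 11 of 23 that separated the groups. The pairs with starts over 1000 bases apart had a median of -0.07, with 8 above and 20 below 0 and 12 of 28 that separated the groups. Those starting just inside the partner had a median of -0.09, with 1 above and 6 below 0 and 1 of 7 that separated the groups. Over all genes tested 47.3% separated them, and 51.8% of those with a mean of at least 20. These are counts in classes formed from the annotation, and the difference between classes was not tested.

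Positions of antisense starts are given relative to the start of the partner, negative being upstream. Both KIF25-AS1, with its start at -594, and MSRB3-AS1, with its start at 363415, were lower in the intensity-trend fit, although their starts are arranged differently. Among pairs whose windows overlap, a shared start region went with like values in some and unlike values in others. RFX5-AS1 starts at -11 and MNX1-AS1 at -194, and in both pairs the sense gene overlapped between the groups. DMTF1-AS1, named after a cyclin D binding transcription factor that activates the ARF tumour suppressor, was lower on both knockdown arrays, at 27.2 and 24.4 against 32.9 and 39.5 in control, and so was DMTF1, at 92.4 and 85.2 against 100.6 and 100.4. MAPKAPK5-AS1 was higher on both knockdown arrays, at 56.5 and 60.3 against 52.6 and 43.8, while the kinase gene MAPKAPK5 overlapped, at 31.1 and 23.9 against 37.0 and 26.2. None of these genes passed either fit.

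Other pairs with overlapping windows are given for comparison. TPT1-AS1 read 54.2 and 46.0 in knockdown against 41.7 and 46.1 in control, and TPT1, the translationally controlled tumour protein, read 3860 and 3851 against 3662 and 3851. SCAMP1-AS1 was lower on both knockdown arrays, at 21.1 and 23.1 against 27.1 and 25.4, while SCAMP1, a carrier membrane protein of secretory vesicles, read 149 and 162 against 160 and 151 by its brightest probe set, its other probe sets lying between -0.45 and 0.29. PCBP1-AS1 read 22.6 and 23.1 against 25.8 and 22.9, and PCBP1, a poly(C) RNA-binding protein, read 535 and 546 against 532 and 520. Log2 fold changes of these 6 genes, each by its brightest probe set, lay between -0.15 and 0.14. ZNF407-AS1, ZNF561-AS1 and MAGI2-AS3 were also lower on both knockdown arrays, at -0.17, -0.14 and -0.29. MAGI2-AS3 averaged 17.9 in knockdown and 25.1 in control, so it reached the limit for members only through the control arrays. Its other probe sets were dim and gave log2 fold changes of 0.09 and 0.12. WAC-AS1, NNT-AS1, ZBED5-AS1, TRIM52-AS1, ILRUN-AS1, FOXP4-AS1, RUSC1-AS1 and SCOC-AS1 overlapped, between -0.18 and 0.14.

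**Figure D5:**
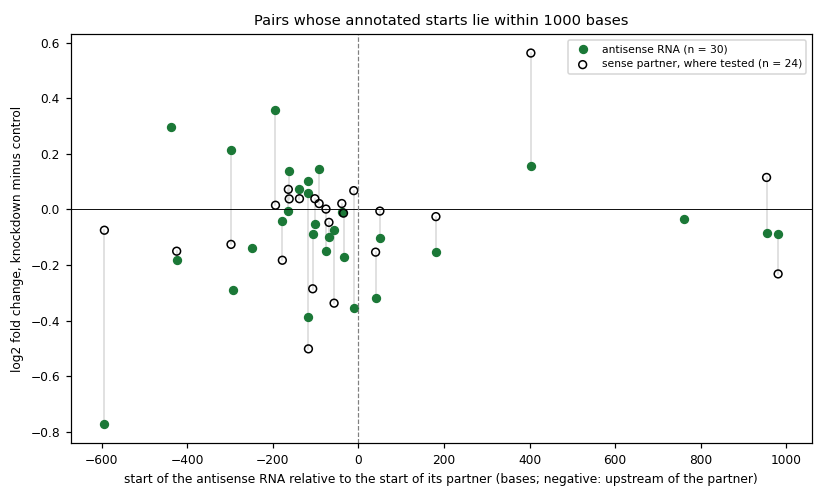
Log2 fold change, knockdown minus control, of the 30 antisense RNAs whose start lies within 1000 bases of the partner's start (filled green points) and of the 24 partners tested (open circles), against the position of the antisense start relative to the partner's start in bases, negative being upstream. Grey lines join the 2 genes of a pair, and KIF25-AS1 at -0.77 and TMEM147 at 0.56 are the outermost points.

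The start windows of the antisense RNAs were rich in CG dinucleotides. The 64 member windows held a median of 25 (quartiles 15 and 35.3), against 13 (3 and 28) in the 27305 windows of all genes, and their median GC content was 63.8% against 58.0%. These sets, also used for the motifs below, were chosen by unlike rules. Members in placed pairs had the window nearest the partner's start, and in 24 pairs it shared bases with the partner's window. For all genes the first window by position was taken. The windows shown above differ widely, with 44 CG in MNX1-AS1, 43 in ATP2B1-AS1, 30 in ZNF232-AS1, 17 in RFX5-AS1, 16 in TMEM147-AS1, 12 in KIF25-AS1 and 1 in MSRB3-AS1. Of the motifs searched on both strands, the CCAAT box (letters CCAAT) was in 34.4% of member windows and 35.6% of all windows, and the core of ETS sites (CCGGAAG) in 10.9% and 10.6%. The TATA box (TATAAA) was in 1.56% of member windows and 12.1% of all. A match is a description of these letters alone, and member windows were drawn from RNAs with a bright signal.

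Where an antisense RNA had several probe sets, these did not always move together. Of the 8 members with at least 2 probe sets of mean 20 or above, 5 had log2 fold changes of opposite sign among them (62.5%), against 50.3% of the 3318 genes on the array with as many. The median spread among probe sets of a gene was 0.23 for these members and 0.19 for all such genes. For GABPB1-AS1, antisense to a subunit of the ETS family complex GABP, 1 probe set read 46.6 and 44.7 in knockdown against 61.7 and 55.4 in control, and another read 54.3 and 50.8 against 42.4 and 35.4. Both separated the groups, in opposite directions, at -0.27 and 0.32 on the log2 scale, so no direction is given for this RNA.

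OIP5-AS1 had probe sets at -0.01, -0.25 and -0.07, of which the second read 124 and 131 in knockdown against 157 and 153 in control. TMEM132D-AS1 had a second probe set at 0.22, with 184 and 204 against 166 and 162, next to -0.04 for the brightest. These probe sets separated the groups in opposite directions, and no direction is given for TMEM132D-AS1. ZNF232-AS1 read 73.6 and 74.3 in knockdown against 80.2 and 77.3 in control by its brightest probe set (-0.07), and 41.6 and 37.9 against 26.7 and 31.1 by the other (0.31). As for GABPB1-AS1, both separated the groups in opposite directions, and no direction is given. EPB41L4A-AS1 (-0.07 and 0.16) also had probe sets on both sides of 0. CCDC144NL-AS1 (0.00, 0.09 and 0.15) and MAPKAPK5-AS1 (0.21, 0.08 and 0.11) had none of their brighter probe sets below 0 beyond rounding, and TSPOAP1-AS1 had -0.01 and 0.07. A dimmer probe set of CCDC144NL-AS1 read 10.83 and 9.48 in knockdown against 17 and 16.99 in control, lower on both knockdown arrays (-0.34). Which part of a transcript and which strand each probe set reads was not examined, since probe sequences were not used here.

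The machinery that degrades or binds such RNAs was measured on the same arrays. The first list held 22 genes, those of the RNA exosome and its nuclear cofactors together with the exonuclease XRN2. Of these, 0 passed limma's common-prior fit. At an unadjusted p under 0.05 that fit had 4 higher and 1 lower, against 14.1% of all genes. In the intensity-trend fit 1 passed and was higher, against 3.01% of all genes in either direction. This was XRN2, a nuclear exonuclease that ends transcription and trims RNA and is not a subunit of the exosome. It read 81.1 and 72.6 in knockdown against 54.4 and 50.3 in control (log2 fold change 0.44, adjusted p 0.0379 in limma's intensity-trend fit). No other gene of the list passed either fit. Without any 1 of the 4 arrays XRN2 missed the threshold, with adjusted p-values between 0.0592 and 0.254. EXOSC4, a core subunit of the exosome, read 96.5 and 99.8 against 76.0 and 69.2 (0.37, adjusted p 0.0612 in the same fit). The median of the list was 0.05, against -0.01 over all genes tested, with 13 above 0 and 9 below.

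Of 14 genes that bind or process double-stranded RNA, 0 passed in either limma fit, against 3.01% of all genes in the intensity-trend fit. At an unadjusted p under 0.05 the common-prior fit had 0 of them, against 14.1% of all genes. Their median was -0.01. The smallest p-values in the list were those of ILF2, a subunit of the NF90 and NF45 complex, at 329 and 288 in knockdown against 277 and 255 in control (0.20), and of PRKRA, an activator of the kinase PKR and partner of Dicer, at 151 and 160 against 128 and 142 (0.18, or -0.084 with its probe sets averaged).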

How the data were processed

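RNA was hybridised as biotinylated cRNA to single-colour oligonucleotide arrays after column purification, per the labels' protocols. The authors deposited 1 linear intensity per array for each of 54613 probe sets, and their summarisation of probes into intensities is not given in the sources used. Gene names came from the platform's annotation, which lists 1 gene for 41091 probe sets, several for 1801 and none for 11721. Gene types and start windows came from RefSeq on GRCh38.p14. Each gene was read by its brightest probe set of 1 gene.

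Fold changes are on the scale of log2(intensity + 16), which makes changes of dim genes look smaller. Array medians spanned 0.07, under the limit of 0.2 for centring. Genes under the median log2 value of all probe sets (4.60, an intensity of 8.26) were left out, and 12921 genes were tested. The groups were compared by lmFit and eBayes of limma 3.58.1 in R 4.3.3, with Benjamini-Hochberg adjustment over all genes and a threshold of 0.05. The pair test ran on all 712 pairs, whatever their brightness. The number of arrays, 4, limits the precision.

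Replicate numbers were not used as pairs in the main fits. Across 12921 genes the deviations of same-numbered arrays had r of -0.01, which cannot show whether those arrays were handled together. Genes named are members or partners past either fit, the 8 brightest members, the 5 members of largest fold change per direction with separated groups, the partners of these, members near the limit of 20, members with several bright probe sets, pairs with overlapping start windows, the targets, and 2 genes per list. TRG-AS1, ENTPD1-AS1, PIK3CD-AS1 and IL12A-AS1, described for their immune role, the marker genes FSCN1, CD3D and COL1A2, and second probe sets were outside this rule and were chosen after their values were seen. The members and lists were chosen with earlier results of these data known. Alternatives were other priors, filters, normalizations, pseudocounts, thresholds, probe set summaries, a replicate block and leaving out each array.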

Additional observations from a re-analysis of the deposited data

How the results depend on the processing

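Under the alternatives the median log2 fold change stayed between -0.08 and -0.01 for the antisense RNAs and between -0.04 and 0.03 for their partners. Calls depended on the prior variance and the pseudocount. Genes called numbered 2 in the common-prior fit, 389 with the intensity-trend prior, 406 with a pseudocount of 64, 15 with a minimum mean of 20, 1 with the probe sets of a gene averaged and 0 with a pseudocount of 1. Antisense RNAs called were 0, and 2 with the intensity-trend prior or a pseudocount of 64, KIF25-AS1 and MSRB3-AS1 in each case. Partners called were 0, and 2 under the same settings, ATP2B1 and TMEM147. Antisense minus sense pairs called were 1, and 0 with a pseudocount of 1. A block for the replicate number gave 2 genes, 0 antisense RNAs, 0 partners and 1 pair, and the block with the intensity-trend prior gave 1011 genes, 3 antisense RNAs (FGD5-AS1 added), 4 partners (ZEB1 and ZNF232 added) and 8 pairs, of which 1 was a member, TMEM132D-AS1. The replicate numbers are not known to pair the samples. Leaving out each array in turn gave 1 to 6 genes, 0 antisense RNAs, 0 partners and 0 to 2 pairs in the common-prior fit, the 6 genes being those without knockdown replicate 1. In the intensity-trend fit it gave 145 to 381 genes (262 without control replicate 1), 0 to 3 antisense RNAs, 1 to 2 partners and 0 to 3 pairs, with 145 genes both without control replicate 2 and without knockdown replicate 2, CLYBL-AS2 called without knockdown replicate 1 and ADARB2-AS1 without knockdown replicate 2. The cause was not tested.

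Among 88 named genes, the log2 fold changes that turned sign with a main value beyond its standard error were PRKRA at -0.084, GABPB1-AS1 at 0.047 and ILRUN at 0.082 with probe sets averaged. RUSC1-AS1 was at -0.014 without control replicate 2 (up to 0.30 without control replicate 1) and TMEM147-AS1 at -0.042 without knockdown replicate 2 (up to 0.36 without knockdown replicate 1), under either prior. The cause of these was not tested. With 2 arrays a group, 1 hairpin and members mostly under an intensity of 50, moderate changes of single antisense RNAs are poorly resolved.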

Other observations

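Antisense RNAs under the mean of 20 were too dim to be members, and 234 of 697 passed the filter on dim probe sets. Their median log2 fold change was -0.08, with 79 above 0 and 155 below, against 6129 and 6792 of all genes. With each array centred on its median these became 108 and 126, against 7774 and 5147. In limma's intensity-trend fit 1 of 234 was lower and 0 were higher, against 1.4% lower and 1.61% higher among all genes tested. The lower one was DHX9-AS1, antisense to an RNA helicase gene. It read 3.72 and 5.46 in knockdown against 15.7 and 18.5 in control (-0.68 on the log2 scale, adjusted p 0.0393 in that fit). The call was lost without any 1 of the 4 arrays, with log2 fold changes between -0.75 and -0.62. The common-prior fit called 0 and had 8 higher and 27 lower of 234 at an unadjusted p under 0.05, against 14.1% of all genes. DHX9-AS1 was under the filter's intensity of 8.26 on both knockdown arrays and entered the test only through the control arrays. GRAPL-AS1 read 11.4 and 13.6 against 23.8 and 23.6 (-0.48) and did not pass.

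Other noncoding RNAs named after a neighbouring gene were counted in the same fit. Of 197 divergent transcripts, with symbols ending in -DT, 82 were tested, 0 passed either limma fit, an unadjusted p under 0.05 in the common-prior fit was reached by 4 with higher and 10 with lower values (14.1% of all genes), and the median was -0.06. METTL14-DT read 6.17 and 7.94 in knockdown against 22.03 and 16.8 in control (-0.62), and ANKRD42-DT read 5.36 and 5.76 against 11.8 and 12.6 (-0.39). Both were under the filter's intensity of 8.26 on both knockdown arrays and entered the test only through the control arrays. Of 31 intronic and overlapping transcripts, ending in -IT1 or -OT1, 12 were tested, 0 passed either limma fit and the median was -0.04. At an unadjusted p under 0.05 the common-prior fit had 1 of them, against 14.1% of all genes. EHMT1-IT1 read 12.5 and 12.8 against 23.2 and 20.9 (-0.41), and GABPB1-IT1 read 50.9 and 48.8 against 40.5 and 41.1 (0.21).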
